A study of Mus musculus with 24 samples.

Results

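Fap and 8 genes used to recognise dermal fibroblasts (Dpt, Pdgfra, Pdgfrb, Thy1, Pi16, Dpp4, Dcn and Lum) were followed across 6 groups of mouse skin. They were chosen by symbol, with the lower Fap and Dpt of isotype skin and their higher level under anti-IFNAR1 already in view. They are 9 of 18193 genes measured, and 17 of 34945 probe sets. Gene expression was measured on 24 Affymetrix arrays, 4 per group, from shaved scapular back skin of female RAG2-/- mice, whose age the labels do not give. RAG2 is needed to assemble antigen receptors, so all recipients lacked T and B cells of their own, and any such cells came from the graft. Anti-IFNAR1 mice had received B10.D2 splenocytes and an antibody against IFNAR1, a subunit of the receptor for type I interferons. Isotype mice had received B10.D2 splenocytes and an isotype control antibody, and syngeneic mice Balb/c splenocytes. The B10.D2 graft produces GVH-SSc, a graft-versus-host disease with skin fibrosis that is used as a model of systemic sclerosis. Each group was sampled at day 14 and at day 28. No antibody is named for syngeneic mice, so graft and injected antibody cannot be told apart in isotype against syngeneic skin. The labels do not say whether arrays stand for separate animals, and p-values therefore measure only the spread between arrays.

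Fibroblasts of the dermis secrete and organise the collagen matrix, and they fall into papillary, reticular and adventitial or fascial populations. Pdgfra and Pdgfrb are receptors for platelet-derived growth factors, and the first marks most skin fibroblasts while the second is shared with pericytes. Pi16 and Dpp4 mark adventitial and fascial progenitor-like fibroblasts, Dpt, Dcn and Lum encode matrix proteins, and Fap encodes a membrane serine protease known for its rise in wound and tumour fibroblasts. Thy1 is a surface glycoprotein of fibroblasts that mouse T cells also carry, and Dpp4 is likewise found on T cells as CD26.

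The arrays carried skin signal throughout. The basal keratin Krt5 lay between 17336 and 34580 intensity units and the dermal collagen Col3a1 between 9502 and 38500 over the 24 arrays. The probe set representing each of the 9 genes lay above its array's median (14.8 to 17.7 units) on all 24 arrays. Of the other 8 probe sets, 1 for Pdgfra and 1 for Pi16 lay below it on all 24. In whole skin, fewer cells of a type and less RNA per cell cannot be told apart. A marker of RNA integrity, the log2 ratio of the 3' over the 5' Gapdh control probe set, ran from 2.13 to 4.81 in anti-IFNAR1, 0.62 to 2.16 in isotype and 0.97 to 6.36 in syngeneic skin at day 14. It ran from 1.21 to 3.85, from 1.07 to 4.59 and from 0.86 to 4.10 in the same order at day 28, and it was above 4 on 5 arrays. Levels below are given as intensity, and changes as differences of log2(intensity + 16) ± SE with 4 arrays per group. A gene is called where limma's test, adjusted by Benjamini-Hochberg over the 18193 genes, falls below 0.05. In counts over gene lists, rose and fell mean called higher and called lower. Where the genes were chosen on a comparison, their changes in it are a description and no p-value is given.

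Promoter windows of 250 bases before to 50 after the gene start were matched in RefSeq (GRCm38.p6) for 4 of the 9 genes: Dpt, Pdgfra, Pi16 and Dpp4. Those of Dpt and Pi16, which were low together in isotype skin, and of Dpp4, the relative of Fap, are printed 5′ to 3′ on the gene's strand, with capitals marking motif matches.
Dpt, chr1:164796413-164796712, + strand: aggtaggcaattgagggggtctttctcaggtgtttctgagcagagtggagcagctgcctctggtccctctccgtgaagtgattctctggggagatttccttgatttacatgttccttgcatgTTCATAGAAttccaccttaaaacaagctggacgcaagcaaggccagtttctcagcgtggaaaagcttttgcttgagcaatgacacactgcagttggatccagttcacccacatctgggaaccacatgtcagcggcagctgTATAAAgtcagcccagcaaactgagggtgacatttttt
Pi16, chr17:29318632-29318931, + strand: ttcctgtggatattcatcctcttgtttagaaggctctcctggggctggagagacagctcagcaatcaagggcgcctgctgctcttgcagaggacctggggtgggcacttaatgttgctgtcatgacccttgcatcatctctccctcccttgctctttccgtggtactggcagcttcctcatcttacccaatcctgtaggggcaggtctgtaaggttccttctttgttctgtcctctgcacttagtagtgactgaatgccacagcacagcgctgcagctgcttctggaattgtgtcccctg
Dpp4, chr2:62412182-62412481, - strand: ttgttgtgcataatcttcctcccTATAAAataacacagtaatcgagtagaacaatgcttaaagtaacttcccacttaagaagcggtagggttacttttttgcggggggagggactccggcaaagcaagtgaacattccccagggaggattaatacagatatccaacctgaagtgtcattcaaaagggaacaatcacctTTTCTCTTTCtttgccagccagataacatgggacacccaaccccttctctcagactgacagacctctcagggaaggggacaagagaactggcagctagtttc
The motifs searched, on both strands, were the interferon-stimulated response element (GAAA, any 2 bases, GAAA), the gamma-activated site (TTCNNNGAA), the AP-1 site (TGANTCA) and the TATA box (TATAAA). Of all 32851 promoter windows, 3.44% held the first, 8.3% the second, 7.81% the third and 13.6% the fourth. In Dpt, 1 gamma-activated letter match began at -128 from the gene start and 1 TATA match at 12. In Dpp4, 1 interferon-stimulated letter match began at -52 and 1 TATA match at -227. In Pi16 and Pdgfra, none of the 4 was found. These are matches of letters only.

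Fap, the serine protease, was low in isotype skin at both days. At day 14 it had 415, 916, 476 and 811 intensity units on the anti-IFNAR1 arrays, 237, 264, 185 and 429 on the isotype arrays, and 543, 1000, 1080 and 1292 on the syngeneic arrays. On the day 28 arrays it had 871, 1167, 667 and 1054 units in anti-IFNAR1, 219, 209, 282 and 162 in isotype and 716, 877, 933 and 988 in syngeneic skin. Every isotype array lay below every syngeneic array of its day, and at day 28 below every anti-IFNAR1 array too. At day 14 the isotype array of 429 units reached past the lowest anti-IFNAR1 array of 415.

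Isotype skin differed from syngeneic skin in Fap by -1.75 ± 0.29 at day 14 and by -1.95 ± 0.29 at day 28, or 0.297 and 0.259 times the syngeneic level. Anti-IFNAR1 skin differed from isotype skin by 1.17 ± 0.29 at day 14 (2.26-fold) and by 2.02 ± 0.29 at day 28 (4.07-fold). The isotype arrays enter both kinds of comparison. Leaving out any array in turn kept the 4 changes within -2.01 to -1.59, -2.07 to -1.82, 0.99 to 1.39 and 1.90 to 2.17. With the Gapdh ratio as a covariate the changes were -1.77, -1.95, 1.19 and 2.02, and with the mean of hair follicle genes they were -1.68, -1.73, 1.17 and 1.93.

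In order of mean log2 level, Fap stood at 9.89 in syngeneic skin at day 14, 9.87 in anti-IFNAR1 skin at day 28, 9.80 in syngeneic skin at day 28, 9.31 in anti-IFNAR1 skin at day 14, 8.14 in isotype skin at day 14 and 7.85 in isotype skin at day 28. The step between anti-IFNAR1 and isotype skin at day 14 was the only one between neighbours that exceeded the larger group SD (0.55). Anti-IFNAR1 skin lay -0.58 ± 0.29 from syngeneic skin at day 14 (95% interval -1.19 to 0.03) and 0.07 ± 0.29 at day 28 (-0.54 to 0.69). Whether the response to anti-IFNAR1 differed between days was not used in choosing the genes and could be tested. For Fap it was 0.85 ± 0.41 larger at day 28, with a limma adjusted p of 0.38, and Fap in anti-IFNAR1 skin itself differed by 0.56 ± 0.29 between day 28 and day 14 (adjusted p of 0.44).

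**Figure D1:**
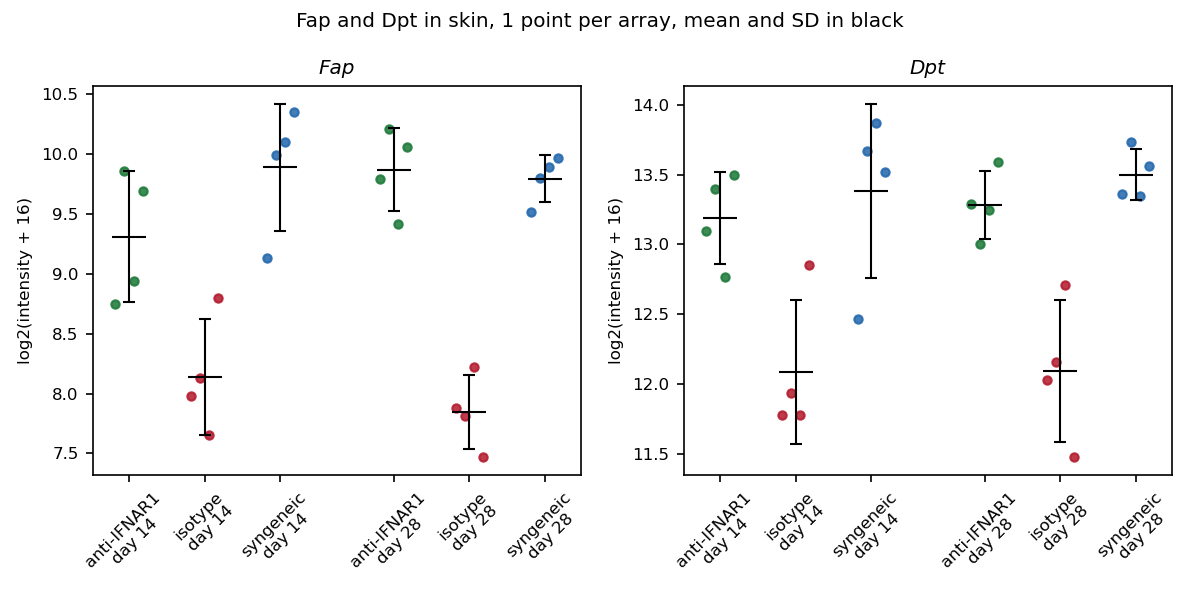
Level of Fap (left) and Dpt (right) as log2(intensity + 16) in the 6 groups, with 1 point per array and the mean and SD of 4 arrays in black. The isotype arrays of both days lie low, with Fap means of 8.14 and 7.85, and 1 isotype array of day 14 stands above the other 3 in both panels.

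Dpt encodes dermatopontin, a small matrix protein that binds decorin and collagen fibrils. At day 14 its intensity was 8749, 10758, 6989 and 11539 in anti-IFNAR1, 3497, 3919, 3499 and 7388 in isotype and 5667, 13058, 14973 and 11732 in syngeneic skin. At day 28 it was 9994, 8199, 9757 and 12352 in anti-IFNAR1, 4173, 4562, 6690 and 2831 in isotype and 10468, 13562, 10390 and 12020 in syngeneic skin. At day 28 the isotype arrays lay below all others of that day. At day 14 the isotype array of 7388 units overlapped both other groups, and the syngeneic array of 5667 lay below it.

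The Dpt change of isotype from syngeneic skin was -1.30 ± 0.30 at day 14 and -1.40 ± 0.30 at day 28. That of anti-IFNAR1 from isotype skin was 1.10 ± 0.30 at day 14 and 1.19 ± 0.30 at day 28, or 2.15-fold and 2.28-fold. Anti-IFNAR1 skin lay -0.19 ± 0.30 from syngeneic skin at day 14 and -0.21 ± 0.30 at day 28, with 95% intervals of -0.82 to 0.43 and -0.84 to 0.42. As for Fap, these are a description and no test. Between days, the 2 changes under anti-IFNAR1 differed by 0.09 ± 0.42 (limma adjusted p of 0.96, 95% interval -0.80 to 0.97). Dpt lay in the order syngeneic day 28, syngeneic day 14, anti-IFNAR1 day 28, anti-IFNAR1 day 14, isotype day 28 and isotype day 14. Only the step of 1.10 between anti-IFNAR1 and isotype skin exceeded the larger SD of its neighbours.

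Dcn encodes decorin and Lum lumican, both small leucine-rich proteoglycans that bind collagen fibrils. Dcn intensity at day 28 was 7229, 10298, 9922 and 13500 in anti-IFNAR1, 7520, 7051, 11070 and 5386 in isotype and 9519, 20071, 6087 and 14592 in syngeneic skin. The 3 groups overlapped, and the change of isotype from syngeneic skin was -0.61 ± 0.41, against 0.13 ± 0.41 at day 14. Anti-IFNAR1 minus isotype was 0.01 ± 0.41 at day 14 and 0.41 ± 0.41 at day 28. A second Dcn probe set, above the array median on 3 of 24 arrays, went the other way at day 14 and was called lower in isotype than in syngeneic skin (-0.84 ± 0.25), with -0.04 ± 0.25 at day 28.

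Lum varied more than any other of the 9 genes, 42-fold between its lowest and highest array. At day 14 it had 1144, 888, 277 and 391 units in anti-IFNAR1, 519, 1278, 688 and 3558 in isotype and 799, 2502, 1958 and 336 in syngeneic skin. On the day 28 arrays Lum had 447, 975, 1793 and 1739 units in anti-IFNAR1, 98.1, 344, 1906 and 173 in isotype and 595, 1150, 801 and 4123 in syngeneic skin. All groups of a day overlapped. The changes of isotype from syngeneic skin were 0.07 ± 0.87 and -1.83 ± 0.87, and those of anti-IFNAR1 from isotype skin -0.95 ± 0.87 and 1.65 ± 0.87, for day 14 and day 28 in turn.

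Lum moved with the Gapdh ratio from array to array. A fit of this ratio within groups, added after the values were seen, gave a Lum change of -0.68 ± 0.11 per unit of the ratio (limma adjusted p of 0.00011), and 39.5% of all genes were called in that fit. Dcn changed by -0.22 ± 0.08 per unit (adjusted p of 0.029), Dpp4 by -0.20 ± 0.05 (0.003) and Pdgfrb by 0.21 ± 0.04 (0.0013), so 4 of the 9 were called. Fap changed by -0.01 ± 0.07 (0.93), Dpt by -0.10 ± 0.06 (0.22), Pdgfra by -0.01 ± 0.04 (0.93), Pi16 by -0.06 ± 0.09 (0.63) and Thy1 by 0.08 ± 0.05 (0.17), and none of these was called. Without the 2 arrays farthest from the median ratio, the Lum slope was -0.83 ± 0.14 and the same 4 genes were called.

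With the ratio as a covariate, the Lum change of anti-IFNAR1 from isotype skin at day 14 was 0.43 ± 0.53 in place of -0.95, and that of isotype from syngeneic skin was -0.98 ± 0.52 at day 14 and -1.70 ± 0.49 at day 28. At day 14 the ratios of anti-IFNAR1 and isotype arrays barely overlapped, so the direction of Lum there depended on whether the ratio was fitted. The part of RNA integrity in the raw Lum differences was not tested beyond this.

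**Figure D2:**
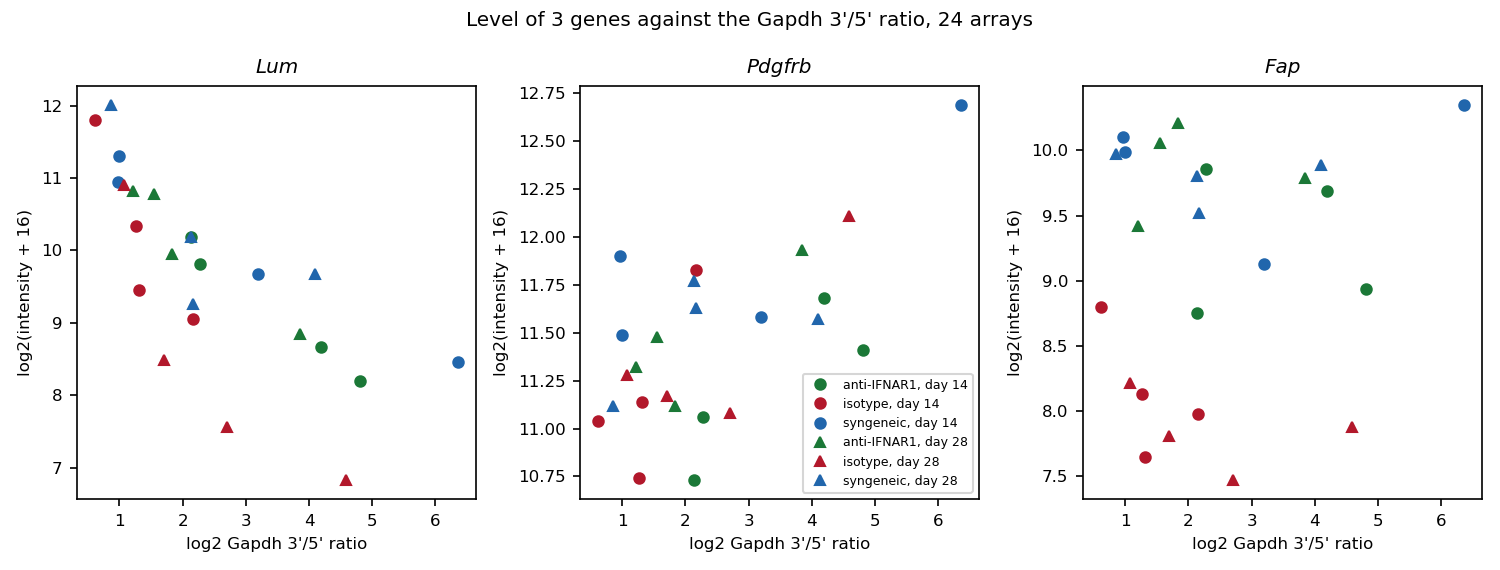
Level of Lum, Pdgfrb and Fap as log2(intensity + 16) against the log2 Gapdh 3'/5' ratio, 1 point per array, colour for the group and shape for the day. Lum falls as the ratio grows (-0.68 per unit within groups), Pdgfrb rises (0.21), and Fap has no slope that passed the test (-0.01).

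Among the receptors, Pdgfra was lower in isotype than in syngeneic skin. At day 14 it had 1731, 1871, 1477 and 2213 units in anti-IFNAR1, 2453, 1542, 1280 and 1585 in isotype and 2845, 2851, 2264 and 2495 in syngeneic skin. At day 28 it had 1915, 1613, 2220 and 1879 units in anti-IFNAR1, 1490, 1072, 1692 and 1019 in isotype and 2518, 3285, 1982 and 2336 in syngeneic skin. The isotype and syngeneic arrays overlapped at day 14 through the isotype array of 2453, and did not at day 28. The changes were -0.64 ± 0.20 and -0.94 ± 0.20 for isotype from syngeneic skin, and 0.11 ± 0.20 and 0.55 ± 0.20 for anti-IFNAR1 from isotype skin. Averaging in the dimmer Pdgfra probe sets moved the first 2 to -0.33 and -0.30, which were not called.

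Pdgfra was also the gene furthest from syngeneic skin under anti-IFNAR1 at day 14 by adjusted p. All 4 anti-IFNAR1 arrays (highest 2213) lay below all 4 syngeneic arrays (lowest 2264), as for 5.87% of all genes, a change of -0.52 ± 0.20 that did not pass the test (limma adjusted p of 0.21). At day 28 the change was -0.39 ± 0.20 (adjusted p of 1, 95% interval -0.81 to 0.03). Pdgfrb changed by -0.73 ± 0.30 at day 14 and -0.11 ± 0.30 at day 28 in isotype against syngeneic skin, and by 0.03 and 0.05 (SE 0.30) in anti-IFNAR1 against isotype skin. The highest of the Pdgfrb values, 6592 units, came from the syngeneic array of day 14 with the highest Gapdh ratio (6.36). Anti-IFNAR1 minus syngeneic was -0.69 ± 0.30 for Pdgfrb at day 14 (adjusted p of 0.28). With the ratio as a covariate that change was -0.79 and was called. The same covariate took the Pdgfrb change of day 14 in isotype minus syngeneic from -0.73 to -0.40 ± 0.21. It took that in anti-IFNAR1 minus isotype from 0.03 to -0.39 ± 0.22, and neither was called.

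Pi16, a secreted peptidase inhibitor that marks adventitial fibroblasts, was patterned like Dpt. At day 14 it had 2040, 3253, 1506 and 4248 units in anti-IFNAR1, 1139, 1027, 939 and 1755 in isotype and 1528, 3826, 6938 and 4535 in syngeneic skin. By day 28 the values were 3111, 2070, 3126 and 3694 in anti-IFNAR1, 2020, 1019, 2146 and 1117 in isotype and 3468, 4970, 2554 and 3527 in syngeneic skin. Isotype arrays lay below all syngeneic arrays at day 28, while 1 syngeneic array of day 14 fell among them. Isotype minus syngeneic was -1.63 ± 0.40 at day 14 and -1.23 ± 0.40 at day 28, and anti-IFNAR1 minus isotype was 1.10 ± 0.40 and 0.97 ± 0.40.

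Dpp4, a dipeptidyl peptidase and the nearest relative of Fap, had 161 to 521 units over the arrays. Its representative probe set changed by -0.53 ± 0.31 at day 14 and -0.50 ± 0.31 at day 28 in isotype against syngeneic skin, and by 0.05 and 0.37 (SE 0.31) in anti-IFNAR1 against isotype skin, with all groups overlapping. Its 4 probe sets differed in size of change. A dimmer set of 6.93 to 117 units gave -1.30 ± 0.35 and -1.18 ± 0.35 for isotype minus syngeneic, and 1.23 ± 0.35 for anti-IFNAR1 minus isotype at day 28. Another, of 83 to 449 units, gave -1.17 ± 0.30 and -0.72 ± 0.30.

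Thy1 ran the other way. At day 14 it had 3586, 2273, 3097 and 4379 units in anti-IFNAR1, 3627, 4194, 4180 and 3648 in isotype and 2363, 2391, 2744 and 3166 in syngeneic skin. At day 28 it had 2503, 2971, 2554 and 2540 units in anti-IFNAR1, 5534, 3248, 3308 and 3079 in isotype and 2668, 4194, 2421 and 1909 in syngeneic skin. The isotype arrays lay above all syngeneic arrays at day 14 and above all anti-IFNAR1 arrays at day 28. The change of isotype from syngeneic skin was 0.56 ± 0.22 and 0.45 ± 0.22, and that of anti-IFNAR1 from isotype skin -0.27 ± 0.22 and -0.48 ± 0.22.

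T cell genes moved with Thy1 at the level of groups. The summed intensity of 13 measured T cell genes, Thy1 and Dpp4 not among them, ran from 775 to 1616 in anti-IFNAR1, 2251 to 3253 in isotype and 182 to 626 in syngeneic skin at day 14. At day 28 it ran from 454 to 704 in anti-IFNAR1, 1842 to 3172 in isotype and 172 to 311 in syngeneic skin. All 13 rose in isotype against syngeneic skin at both days, and 6 of the 13 lay under the array median on every syngeneic array of day 28. Against isotype skin, all 13 had changes below 0 under anti-IFNAR1 at day 14, and 5 of them were called lower. At day 28, 13 of 13 were called lower. Cd3d, part of the CD3 signalling complex, changed by 4.28 ± 0.23 (isotype minus syngeneic, day 14, limma adjusted p of 2.2e-09). Within groups, deviations of Thy1 and of the mean T cell level had r of 0.39. The syngeneic array of day 28 with 4194 Thy1 units had the lowest T cell sum of all arrays, 172. The part of T cell genes in the Thy1 and Dpp4 levels was not tested.

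**Figure D3:**
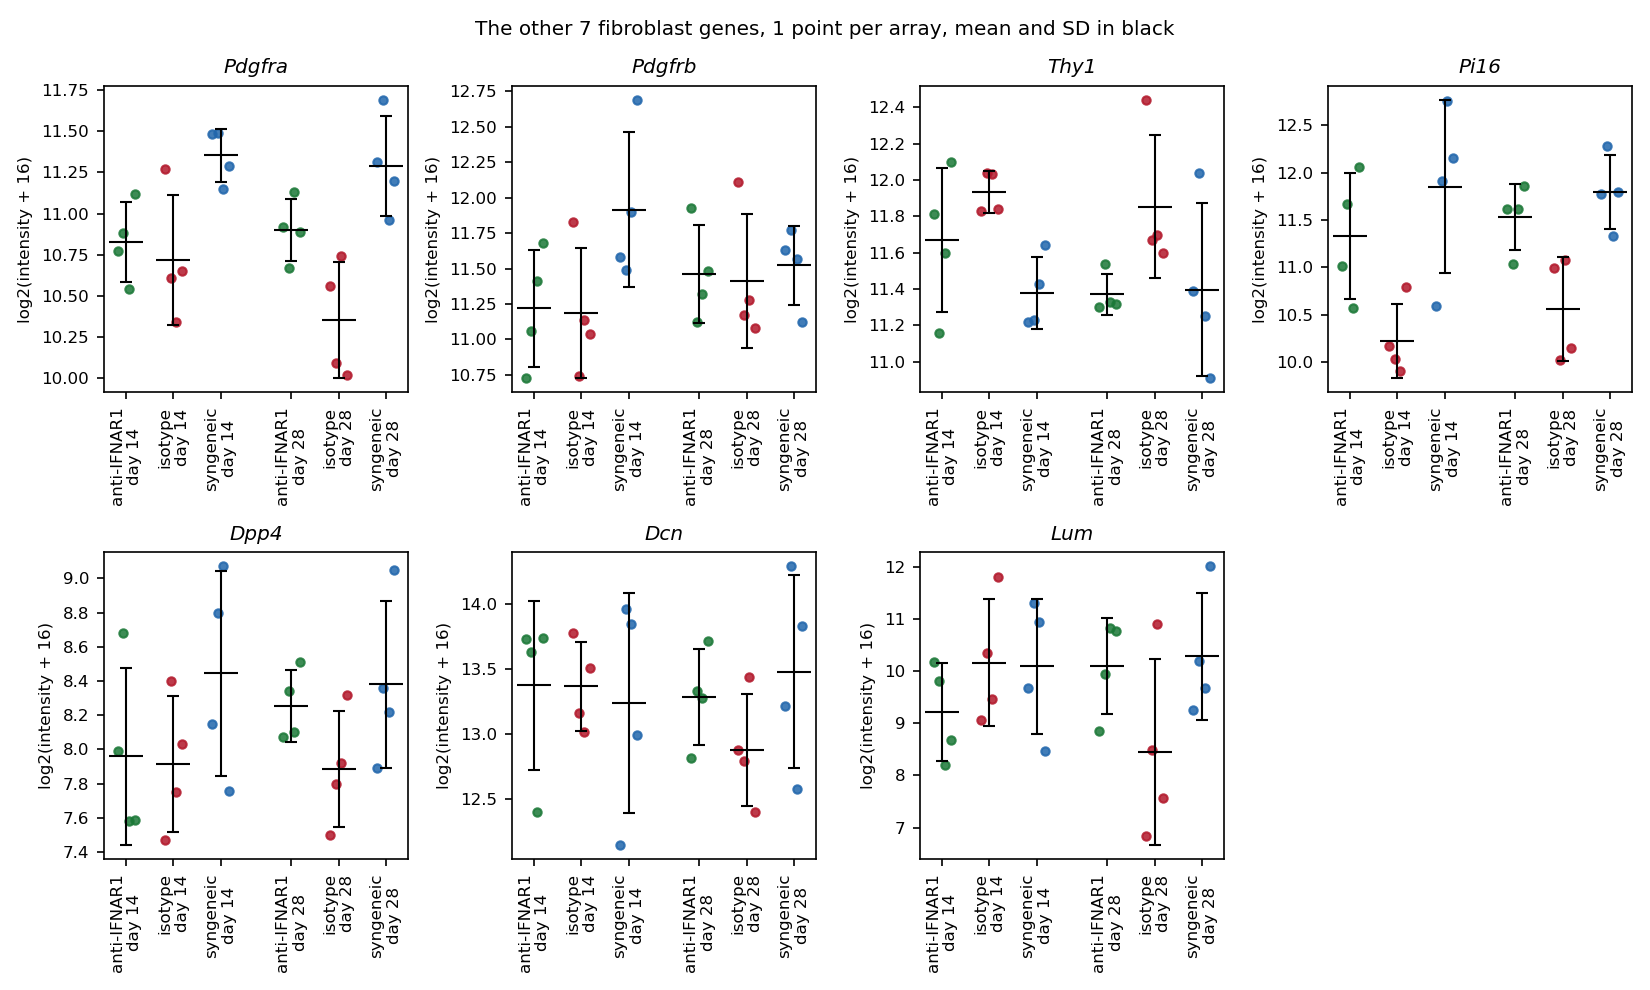
Level of the 7 other genes as log2(intensity + 16) in the 6 groups, 1 point per array, with the mean and SD of 4 arrays in black. Pi16 and Pdgfra lie low in isotype skin, Thy1 lies high there, and Lum spreads widely within every group.

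By the fit over all genes, Fap, Dpt, Pdgfra and Pi16 were called lower in isotype than in syngeneic skin at day 14, 4 of 9, beside 13.6% of all genes called in either direction and 8.30% called lower. The same 4 were called lower at day 28, beside 16.3% in either direction and 9.69% lower. Which 4 were called depended on the probe sets. With each gene's probe sets averaged, Pdgfra was called at neither day and Dpp4 was called at both (-0.86 ± 0.25 and -0.81 ± 0.25), beside Fap, Dpt and Pi16. Pi16 at day 28 was not called with the hair follicle mean as a covariate, with only the arrays compared, with every probe set fitted or with the replicate block. The genes were chosen on these comparisons, so the counts are a description. Under anti-IFNAR1 against isotype skin 0 of 9 were called at day 14, beside 0.813% of all genes, and Fap and Dpt were called higher at day 28, beside 13.3% in either direction and 8.42% higher. At day 14 only 0.654% of all genes were called lower there, and at day 28 4.89%. Groups did not overlap for 1 gene lower (Fap, 8.14% of all genes) and 1 higher (Thy1, 5.11%) in isotype skin at day 14, and for 4 lower at day 28 (12.2%). For anti-IFNAR1 against isotype skin at day 28 they did not overlap for 2 genes higher (10.3%) and for Thy1 lower (6.85%).

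The median change of the 9 genes was -0.64 at day 14 and -0.94 at day 28 for isotype minus syngeneic, and 0.05 and 0.55 for anti-IFNAR1 minus isotype, where all genes had medians of -0.01, 0.00, 0.00 and 0.00. The genes were chosen on these comparisons, so their medians are a description. All genes include many dim ones, while the 9 lay above the array median on every array, so the medians do not compare like with like. The call of all 4 at day 14 was lost when only the 8 arrays compared were fitted, and only Fap and Pi16 were called there without the 5 arrays of high Gapdh ratio. Without isotype replicate 4 of day 14, the array of 429 Fap and 7388 Dpt units, Fap and Dpt were called higher under anti-IFNAR1 at day 14, and without anti-IFNAR1 replicate 1 Fap was. That isotype array is the one that overlapped the anti-IFNAR1 arrays in both genes. The genes were chosen on this comparison, so these calls are a description only. Leaving out each array in turn gave 32 to 625 calls among all genes there, against 148 with all arrays. Without isotype replicate 4 of day 28, only Fap was called under anti-IFNAR1 at day 28.

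**Figure D4:**
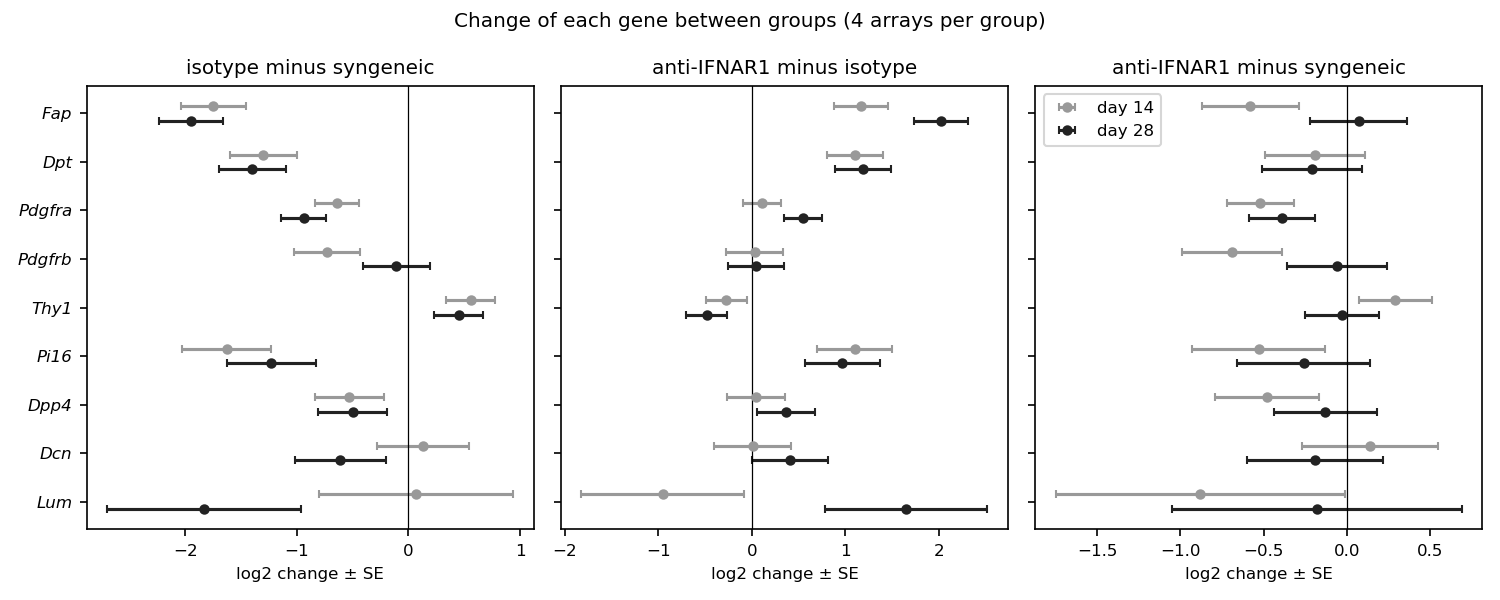
Log2 change ± SE of each of the 9 genes in isotype minus syngeneic (left), anti-IFNAR1 minus isotype (middle) and anti-IFNAR1 minus syngeneic skin (right), grey for day 14 and black for day 28. Fap has the largest changes of the 9 in the middle panel at day 28 (2.02), and in the right panel the members lie between -0.88 and 0.29.

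The genes were not chosen on the differences between days, nor, apart from Fap and Dpt, on anti-IFNAR1 against syngeneic skin. In anti-IFNAR1 against syngeneic skin 0 of the other 7 genes were called by limma at day 14 (1.12% of all genes were) and 0 of 7 at day 28 (0.0330%), with 2 (Pdgfra and Pdgfrb) and 0 at an unadjusted p under 0.05. Between day 28 and day 14, 0 of 9 were called in anti-IFNAR1 (0.555% of all genes), isotype (2.20%) and syngeneic skin (0.0770%), and 0 of 9 had an unadjusted p under 0.05 in each. Differences between days gave 0 of 9 calls for isotype minus syngeneic (0.0440%) and 0 of 9 for anti-IFNAR1 minus isotype (0.0715%), with 0 and 1 (Lum) at an unadjusted p under 0.05. The Lum difference of the response to anti-IFNAR1 between days was 2.60 ± 1.23 (adjusted p of 0.37). A dim second Pi16 probe set was called lower in anti-IFNAR1 than in syngeneic skin at day 14 (-0.39 ± 0.06), with 5.87 to 7.37 units in anti-IFNAR1 against 11.1 to 16.2 in syngeneic skin, all below the array median.

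Ranked by Pearson correlation of log2 levels over the 24 arrays, which share the 6 groups, the genes most like Fap among 10565 were Ccdc80 (r = 0.93) and Dpt (0.92). Ccdc80 encodes a secreted matrix-associated protein. Their deviations from group means had r of 0.78 and 0.76 with Fap. Tsc22d1 and Neo1 followed with r of 0.92 each. Closest to Dpt was Nfia, a nuclear factor I transcription factor, with r of 0.97 over arrays and 0.91 over deviations. Nrep, Cilp and Tshz1 followed with 0.93 each, Pi16 stood at 0.92 (0.85 over deviations) and Fap at 0.92. Pgam2 also stood at 0.92 with Dpt (0.75 over deviations). Over the same arrays, Fap and Dpt had r of -0.88 and -0.83 with the mean T cell level, and -0.46 and -0.43 over deviations from group means. Nfia had group means of 10.51, 9.67 and 10.68 at day 14 and 10.63, 9.80 and 10.79 at day 28 for anti-IFNAR1, isotype and syngeneic skin.

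Other fibroblast genes were read from lists that exclude the 9. Over all genes in isotype against syngeneic skin, 5.29% were called higher at day 14 and 6.66% at day 28. Of 26 measured collagen and matrix genes, 6 were called lower and 0 higher in isotype against syngeneic skin at each day. The list medians were -0.77 and -0.62, and 20 and 23 of the 26 had changes below 0. Col6a2, a collagen VI chain, fell at day 14 (-1.64 ± 0.33, limma adjusted p of 0.0039), and Ccdc80 fell at both days (-1.56 ± 0.37 with 0.011, and -2.87 ± 0.37 with 5.9e-05). Under anti-IFNAR1 against isotype skin 0 of 26 were called by limma at day 14 (3 at an unadjusted p under 0.05), and at day 28 4 rose (Ccdc80, Igfbp4, Timp2 and Gsn) and 0 fell, with a list median of 0.39. Ccdc80 rose by 2.47 ± 0.37 (adjusted p of 0.00037).

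Of 17 lineage and surface genes, 2 rose and 2 fell at day 14, and 2 rose and 4 fell at day 28, in isotype against syngeneic skin. Cd34, a sialomucin of fibroblasts and endothelium, fell at both days (-0.99 ± 0.30 and -1.47 ± 0.30, limma adjusted p of 0.034 and 0.0021), and Prrx1, a homeobox factor of the fibroblast lineage, fell at day 28 (-1.27 ± 0.28, 0.0035). S100a4 rose at day 14 (0.81 ± 0.25) and the podoplanin gene Pdpn at day 28 (1.16 ± 0.29). Under anti-IFNAR1 at day 28 against isotype skin, Cd34 (1.28 ± 0.30), Prrx1 (1.07 ± 0.28) and Itga8 (1.23 ± 0.34) rose, and Pdpn fell (-1.36 ± 0.29).

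Of 17 adventitial and fascial genes, the population that Pi16 and Dpp4 mark, 4 fell and 1 rose in isotype skin at day 14, and 5 fell and 1 rose at day 28. Cd248, which encodes endosialin, changed by -1.25 ± 0.38 and -1.77 ± 0.38 (limma adjusted p of 0.036 and 0.0033), and Fndc1 by -1.66 ± 0.39 and -1.35 ± 0.39. Has1, a hyaluronan synthase, rose at day 14 (1.65 ± 0.33). Of 23 papillary and dermal papilla genes, 4 were called lower at day 14 and 11 at day 28, and 0 higher. Changes lay below 0 for 16 and 22 of the 23. In isotype skin, 7 of the 23 lay under the array median on every array at each day. The Wnt agonist Rspo3 fell by 1.29 and 1.97 on the log2 scale, and Bmp4 by 1.33 and 1.84. At day 28, 5 of the 23 rose under anti-IFNAR1 against isotype skin, among them Lrig1 (1.92 ± 0.44), Bmp4 (1.67 ± 0.38) and Fgf7 (1.17 ± 0.33).

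Of 13 small leucine-rich proteoglycans other than Dcn and Lum, 3 were called lower at each day in isotype skin. There, 6 of the 13 lay under the array median on every array at each day. At day 28 the fall of Ogn, which encodes osteoglycin, was -3.24 ± 0.61 (limma adjusted p of 0.0011) and that of Fmod, which encodes fibromodulin, was -2.40 ± 0.71 (0.025). Ogn rose by 2.45 ± 0.61 under anti-IFNAR1 at day 28. Of 8 relatives of Fap and Dpp4 among the prolyl peptidases, Dpp8 and Prepl fell and Dpp7 rose at day 14, and Prepl fell and Prcp rose at day 28. The list medians were 0.00 at both days. Of the 4 genes of the ligands of Pdgfra and Pdgfrb, 0 were called by limma in isotype against syngeneic or anti-IFNAR1 against isotype skin, with 2 and 0 (isotype minus syngeneic) and 1 and 1 (anti-IFNAR1 minus isotype) at an unadjusted p under 0.05 at day 14 and day 28.

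Of 21 genes of activated and inflammatory fibroblasts, 10 were called higher and 1 lower in isotype against syngeneic skin at day 14. At day 28, 6 were called higher and 0 lower. The list medians were 1.15 and 1.04, and 4 and 8 of the 21 had changes below 0. Tnc, which encodes the wound matrix protein tenascin C, rose by 4.04 ± 0.96 and 4.24 ± 0.96 (limma adjusted p of 0.01 and 0.0047), and the adhesion molecule gene Vcam1 by 3.43 ± 0.46 and 2.93 ± 0.46. Against isotype skin, 2 of 21 were called lower under anti-IFNAR1 at day 14 (Ccl2 and Ch25h) and 6 at day 28, Tnc by 4.01 on the log2 scale. Changes lay below 0 for 19 of the 21 at day 14 and 15 at day 28. Several of these genes, such as Vcam1 and Ccl2, are also made by endothelium or macrophages. Against syngeneic skin at day 14, anti-IFNAR1 skin held Vcam1 higher (2.09 ± 0.46, adjusted p of 0.035) and Comp lower (-1.78 ± 0.39, 0.035).

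Fit on only the 8 arrays compared, all of these fibroblast lists had 0 calls in isotype against syngeneic skin at day 14. At day 28 that fit gave 4 lower calls for collagens and matrix and 5 for papillary genes. Without the 5 arrays of high Gapdh ratio, the papillary list had 1 lower call at day 14 and 2 higher calls under anti-IFNAR1 at day 28, and the activated list had 3 higher calls at day 14. The adventitial list then had 2 lower calls at day 28. The calls of the activated list under anti-IFNAR1 at day 14 went to 0 in both of these fits.

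Other tissue markers moved at day 28 alongside Fap and Dpt. Of 12 adipocyte genes, 10 fell in isotype against syngeneic skin and 12 rose in anti-IFNAR1 against isotype skin, and their summed intensity ran from 74445 to 116628 in anti-IFNAR1, 20591 to 39525 in isotype and 68889 to 92611 in syngeneic skin. At day 14, 1 of the 12 fell in isotype skin and 0 were called by limma under anti-IFNAR1 (2 at an unadjusted p under 0.05). Of 16 skeletal muscle genes, 9 fell and then 9 rose in the same 2 comparisons of day 28, with sums of 342583 to 512662, 174679 to 344139 and 321905 to 508867 units in anti-IFNAR1, isotype and syngeneic skin. Of 11 pericyte and smooth muscle genes, 5 fell and 4 rose, with sums of 13110 to 23724, 10656 to 19193 and 13277 to 23381. Hair follicle genes, 3 of 19 lower in isotype skin at day 28, ran from 493 to 314587, 444 to 10399 and 5136 to 147377 in sum. On only the 8 arrays compared, 4 muscle and 0 pericyte genes were called higher under anti-IFNAR1 at day 28. Of 16 macrophage and monocyte genes, 14 rose in isotype skin at day 14 and 13 at day 28, and of 17 interferon-inducible genes 13 and 14 rose. Under anti-IFNAR1 against isotype skin, 2 and 10 of the macrophage genes and 4 and 15 of the interferon-inducible genes were called lower at day 14 and day 28. At day 14, changes lay below 0 for 14 of the 16 macrophage genes and all 17 interferon-inducible genes, with medians of -1.24 and -1.34. All 4 wound keratins rose in isotype skin at both days. Of 12 endothelial genes 1 rose and 2 fell at day 14 and 0 were called at day 28, of 5 Schwann cell genes 1 and 3 fell, and of 8 keratinocyte genes 1 rose at day 14 and 1 rose and 1 fell at day 28. On only the 8 arrays compared, the higher calls in isotype skin at day 14 numbered 5 for T cell, 1 for macrophage, 1 for interferon-inducible and 0 for wound keratin genes, and the lower calls under anti-IFNAR1 at day 14 numbered 0 for each of the first 3 lists. With the hair follicle mean as a covariate in the fit of the 9 genes, Pi16 lost its call in isotype against syngeneic skin at day 28 (-1.31 ± 0.47) and Pdgfra gained one in anti-IFNAR1 against isotype skin at day 28 (0.62 ± 0.20). No other call of the 9 genes changed in the comparisons of isotype with syngeneic or anti-IFNAR1 with isotype skin. The part of the other tissues in the fibroblast gene levels was not tested.

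**Figure D5:**
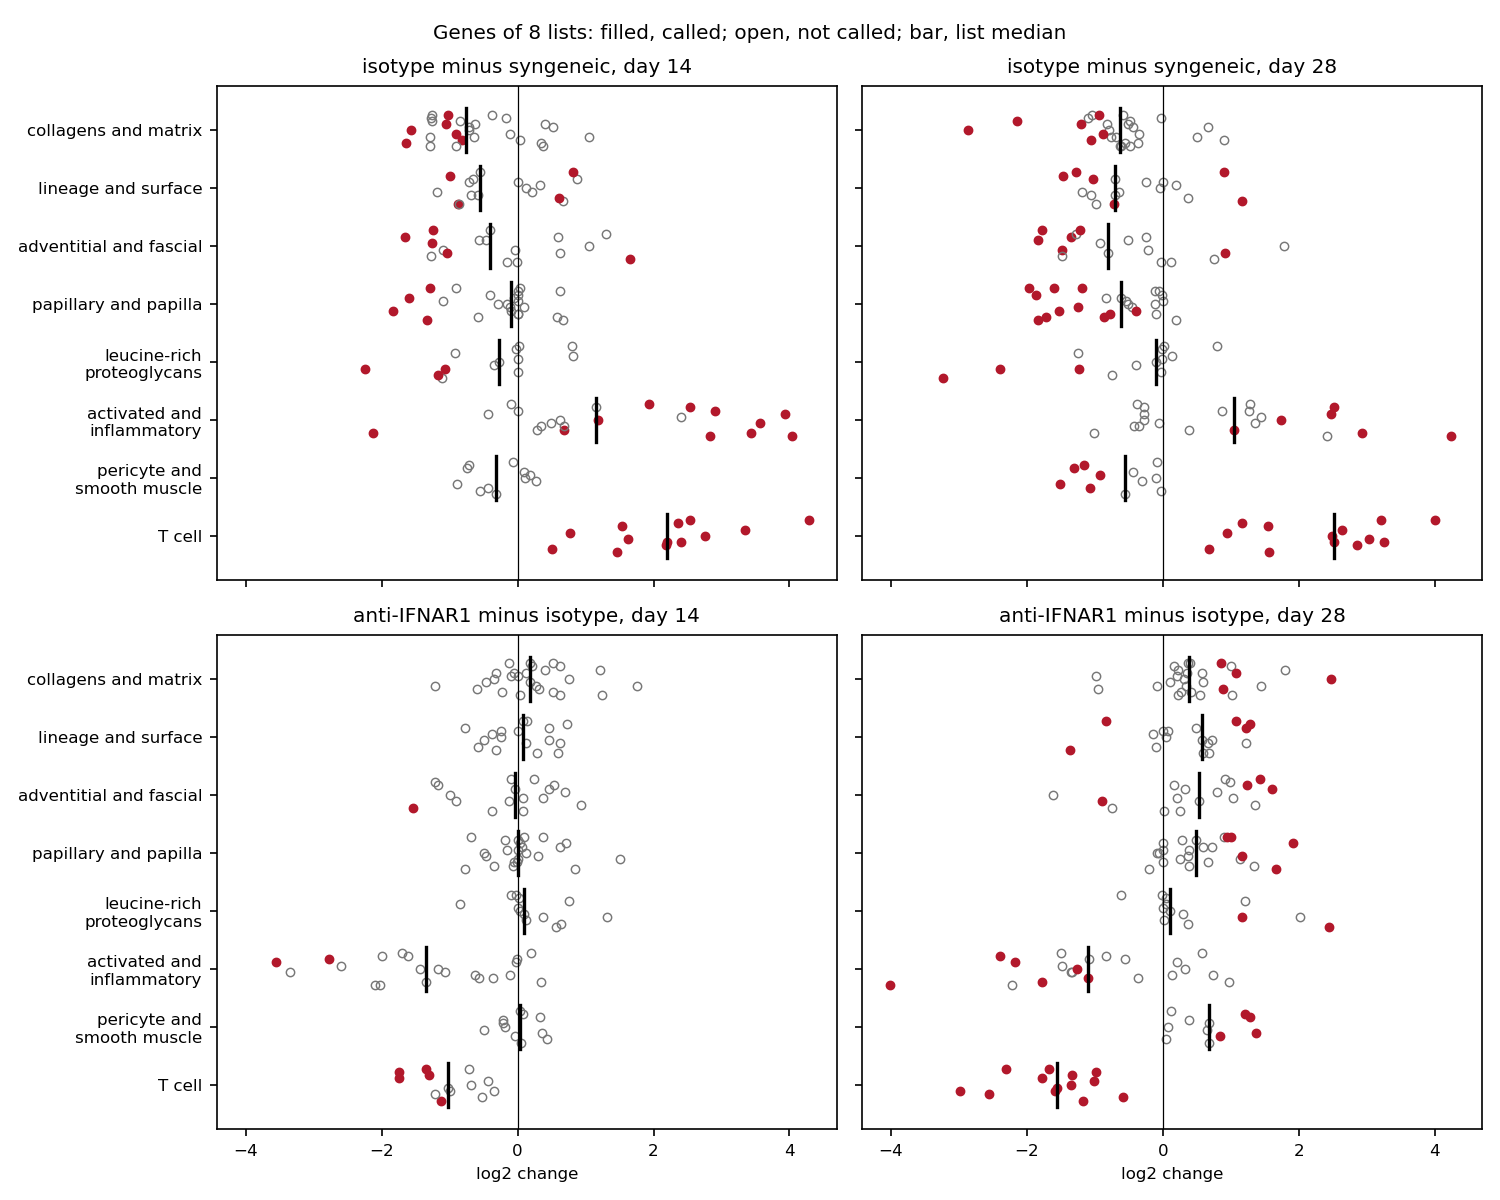
Log2 change of each gene of 8 lists (rows) in 4 comparisons (panels), filled where called, with the list median as a bar. Collagen, papillary and adventitial genes lie mostly below 0 in isotype minus syngeneic skin, activated and T cell genes above it, and the day 28 panel of anti-IFNAR1 minus isotype shows the opposite sides.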

How the data were processed

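The authors deposited 1 linear intensity for each probe set and array. Their summarisation, background correction and normalization are not given in the sources used here, whose protocols name total RNA and a biotin label, per the labels. Intensities ran from 1.68 to 92640 and array medians from 14.8 to 17.7, and for arrays their number limits the precision. Of 45101 probe sets, 64 controls, 932 with several symbols and 9160 not listed were left out. Symbols were updated through gene identifiers for 34741 of the 34945 used, and each gene was represented by its probe set with the highest mean.

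Values were analysed as log2(intensity + 16), which understates changes of dim genes. Group means of all 24 arrays were fitted with limma 3.58.1 in R 4.3.3 (lmFit, eBayes, 18 residual degrees of freedom, prior 0.71), two-sided, with Benjamini-Hochberg adjustment over 18193 genes and a threshold of 0.05. The fit was tested on simulated data. The comparisons were the 3 pairs of groups at each day, days within groups, and 2 differences between days. Arrays correlated pairwise at 0.919 to 0.995, and 0 pairs were identical.

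The 9 genes, the comparisons and 19 gene lists (262 of 285 genes measured) were chosen with earlier results of these data known. The text names all 9 genes, part of the 4 called genes of each list with the largest change, and part of the 10 genes most like Fap and Dpt. Same-numbered replicates did not deviate together (median r -0.03 over 60 pairs, -0.59 to 0.60), so the numbers were not taken to pair arrays.

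Alternatives were quantile normalization, centred medians, an offset of 1, no dim genes, mean or all probe sets, a trended robust prior, array weights, the replicate block, fits on only the arrays compared, the Gapdh ratio or hair follicle mean as a covariate, no arrays with a Gapdh log2 ratio above 4, and leaving out each array. List counts under 2 of these, and the slope on the Gapdh ratio, were added after the data were seen.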

Additional observations from a re-analysis of the deposited data

Results flagged for a closer look

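In 54 checks of 9 genes in 6 groups of 4 arrays, 4 found an array standing apart, its gap to the nearest array divided by the group's range on the log2 scale being above Dixon's 95% critical value. Chance flags about 1 in 20 such groups. In anti-IFNAR1 skin at day 14, replicate 3 was lowest for Dcn (ratio 0.91, 5390 units), and its log2 Gapdh ratio of 4.81 was the highest of that group. In anti-IFNAR1 skin at day 28, replicate 2 was highest for Thy1 (ratio 0.88, 2971 units), and its mean log2 level of hair follicle genes, 12.93, was the highest of all arrays. In isotype skin at day 28, replicate 1 was highest for Thy1 (ratio 0.88, 5534 units), and it also had the highest T cell sum of its group, 3172. In isotype skin at day 14, replicate 4 was highest for Dpt (ratio 0.85, 7388 units), and its Fap level of 429 units and its lowest Gapdh ratio of 0.62 were extremes of the group too.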

How the results depend on the processing

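The Fap and Dpt changes kept their direction in all 21 other settings of isotype minus syngeneic and anti-IFNAR1 minus isotype at both days. The genes were chosen on these comparisons, so this is a description. Pi16 and Thy1 kept theirs in all 21 as well, and the others did not in every comparison. For anti-IFNAR1 minus isotype, Pdgfrb kept its direction in 14 settings at day 14 and 17 at day 28. At day 14, Dcn kept it in 15 and Lum in 20, and for isotype minus syngeneic in 16 and 15. The number of the 9 genes called moved in some settings. For anti-IFNAR1 minus isotype at day 14 (0 called) it was 1 with dim genes left out, 3 with array weights, and 0 to 2 without 1 array. For isotype minus syngeneic at day 14 (4) it was 0 with only the arrays compared, 2 without the arrays of high Gapdh ratio, 6 with the Gapdh ratio as a covariate (Dpp4 and Thy1 added), 5 with array weights (Pdgfrb added), and 3 to 4 without 1 array. For anti-IFNAR1 minus isotype at day 28 (2) it was 5 with array weights, 1 without the arrays of high Gapdh ratio, and 1 to 3 without 1 array. For isotype minus syngeneic at day 28 (4) it was 5 with the Gapdh ratio as a covariate (Lum added), and 3 to 5 without 1 array. For anti-IFNAR1 minus syngeneic at day 14 (0) it was 1 (Pdgfrb, -0.79) with the Gapdh ratio as a covariate. Calls among all genes moved in the same fits. With array weights, 2596 of all genes in place of 148 were called in anti-IFNAR1 minus isotype at day 14, and 4860 in place of 2422 at day 28. In isotype minus syngeneic at day 14, 83 in place of 2472 were called with only the arrays compared, and 3638 with array weights. All-gene calls are not given here with the Gapdh ratio as a covariate, nor for most comparisons without its high arrays. The counts of the 9 genes in those fits are a description. Leaving out 1 array gave 32 to 625 in anti-IFNAR1 minus isotype at day 14. The cause was not tested, except that fewer arrays enter some fits.

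With the replicate number as a block, which the pairing check did not bear out, 3 of the 9 genes were called in isotype minus syngeneic at each day, 0 and 2 in anti-IFNAR1 minus isotype at day 14 and day 28, and 0 in the other comparisons. Of all genes, 2472 were called in isotype minus syngeneic at day 14 (83 to 3638 over the settings other than leaving out 1 array) and 2973 at day 28 (2228 to 5638). In anti-IFNAR1 minus isotype 148 (2 to 2596) and 2422 (1539 to 4860) were called, and in anti-IFNAR1 minus syngeneic 204 (0 to 891) and 6 (1 to 656). The highest of each range came with array weights. The lowest came with only the arrays compared, apart from 2 comparisons of day 28. These were isotype minus syngeneic (without the arrays of high Gapdh ratio) and anti-IFNAR1 minus syngeneic (hair follicle mean as a covariate). The dimmest Dpp4 probe set and 1 further set each of Pdgfra, Pi16 and Dcn fell to or under the array median on 6 to 24 arrays, and their changes are understated.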

Other observations

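In the RefSeq order, 25 distinct measured genes lay within 2 positions of the 9 genes. In isotype against syngeneic skin, limma called 2 of the 25 at day 14 (Ifih1 and Chic2), beside 13.6% of all genes. At day 28 it called 3 of the 25 (Ifih1, Csf1r and Nectin1), beside 16.3% of all genes. Those described were chosen after their values were seen. In the order of RefSeq genes on chromosome 2, Fap lies between Gcg and Ifih1. Ifih1, an interferon-inducible sensor of viral RNA, was higher in isotype than in syngeneic skin, by 1.71 ± 0.39 at day 14 and 1.37 ± 0.39 at day 28 (limma adjusted p of 0.0085 and 0.021, n = 4 arrays each), on the log2 scale. Fap lay lower there. Gcg, which encodes glucagon, stayed near the background with a mean log2 level of 4.40 over the arrays. Next to Pdgfrb lies Csf1r, the receptor gene of macrophage growth factor, which was higher in isotype skin at day 28 (0.68 ± 0.16, adjusted p of 0.0051), with 0.31 ± 0.16 (0.21) at day 14.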
